A study of Mus musculus with 1104 samples.

Results

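The 32 genes described here build fatty acids and join them to glycerol. They were taken by name from a count table of 20646 genes and cover the path from cytosolic acetyl-CoA to triglyceride, with Pnpla3 of the lipid droplet and 3 genes of its transcriptional control. All 32 had a row in the table. Their change over time on a high-fat diet was followed in 13 organs, and liver was set against epididymal white, inguinal white and interscapular brown fat.

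Fatty acid synthesis starts from citrate, which Slc25a1 carries out of the mitochondrion and Acly splits into acetyl-CoA, while Acss2 makes acetyl-CoA from acetate and Me1 supplies NADPH. Acaca and Acacb carboxylate acetyl-CoA to malonyl-CoA, Fasn builds palmitate from it, and elongases (Elovl) and desaturases (Scd, Fads) lengthen and unsaturate the chain. Glycerol phosphate acyltransferases (Gpam, Gpat3, Gpat4), the Agpat enzymes and the lipin phosphatases (Lpin) then lead to diacylglycerol, which the monoacylglycerol acyltransferases Mogat1 and Mogat2 make by another route, and Dgat1 and Dgat2 add the last chain. SREBP-1 (Srebf1) and ChREBP (Mlxipl) switch on these genes after insulin and carbohydrate, and dietary polyunsaturated fat lowers them in liver. Liver and fat are the main sites of the pathway, and in the small intestine the acyltransferases rebuild triglyceride from absorbed fat.

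Poly(A) RNA was sequenced from whole organs of male C57BL/6 mice that ate a diet with 60% of its energy from fat, begun at 8 weeks of age. Each organ had 6 mice at each of 14 time points, which were the start of the diet (0 days), then 1, 3 and 10 days of it, every week from 1 to 8 weeks, and 10 and 12 weeks. In epididymal fat 16 and 20 weeks were added, and the series holds 184 groups and 1104 libraries. No mice of matched age without the diet were analysed here. Every later time point was set against the same 6 mice at 0 days, and diet, age and day of dissection cannot be told apart. Levels are CPM, a gene's count relative to the scaled size of its library, given as the lowest, the median and the highest of 6 mice, and where 2 such sets stand together with no time the first is from 0 days and the second from 12 weeks. Changes are log2 fold changes ± standard error (SE) from edgeR's quasi-likelihood test, and a gene is said to have risen or fallen where the p-value adjusted over all genes of the organ was under 0.05. Reads of a gene and of one overlapping it on the other strand may be mixed, since how strand was treated in counting is not given in the sources used here.

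Libraries held 7670532 to 27036098 counts. Summed defining markers were high in the organ of each label: the sum of 5 hepatocyte genes had a median of 89852 CPM in liver at 0 days, and that of 8 adipocyte genes 34072 CPM in epididymal, 25246 CPM in inguinal and 16116 CPM in brown fat. Muscle markers in the 2 muscles, acinar markers in pancreas, enterocyte markers in small intestine, neuron markers in the 4 brain regions and hormone genes in pituitary had medians of 141240.0 and 71841, 188152, 16597, 2229.8 to 3842 and 202829 CPM. Some libraries stood apart from their group. Replicate 1 of epididymal fat at 0 days held 1669 CPM of hepatocyte markers against a median of 15.7, and replicate 6 of inguinal fat at 0 days held 26626 CPM of skeletal muscle markers against 134. These libraries were also the least correlated of their groups, with median correlations of 0.918 and 0.921. At 0 days the lowest was 0.82 in soleus (replicate 1) and 0.931 in pancreas (replicate 6). It was 0.955 in brown fat (replicate 6) and 0.97 in gastrocnemius (replicate 2). The best libraries of soleus, pancreas, brown fat and gastrocnemius had 0.978, 0.968, 0.982 and 0.987. Without the least correlated library of every time point, 23 genes rose and 1 fell at 12 weeks in liver (42.4% of all genes were called), 8 and 18 in epididymal (63.8%), 10 and 9 in inguinal (56.1%) and 5 and 10 in brown fat (36.4%).

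At 0 days the desaturase gene Scd1 had the highest level per kilobase of transcript among the 32 genes in all 4 lipid organs, 1205 CPM per kb in liver, 2418 in epididymal, 2286 in inguinal and 3376 in brown fat. Scd1 lies at chr19:44394455-44407879 (GRCm38, minus strand), and its neighbour Scd2, at chr19:44293674-44306864 on the plus strand, led in the 4 brain regions and the pituitary, with 472 CPM per kb in hypothalamus, but reached 0.886 in liver. The small intestine was led by Dgat1 (378 CPM per kb), with Mogat2 at 213 and Dgat2 at 212. Fasn ran from 625 CPM per kb in brown fat through 389 in inguinal and 199.5 in epididymal fat to 23.5 in liver. The 2 monoacylglycerol acyltransferases were near zero in the liver of mice at 0 days, Mogat1 at 0.247 and Mogat2 at 0.105 CPM per kb.

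RefSeq (GRCm38.p6) gave promoter windows, 250 bases before to 50 after the annotated start, for 25 of the 32 genes. Scd1, Scd2, Fads1, Dgat1, Dgat2, Mogat2 and Gpat4 had no entry in the table used here. The windows of 4 genes are shown as examples from those whose changes in liver and in a fat depot lay far apart. Capitals mark 2 motifs sought on both strands: the CCAAT box (CCAAT, or ATTGG on the other strand), which NF-Y binds, and the E-box CACGTG.
Fasn (chr11:120824498-120824797, minus strand): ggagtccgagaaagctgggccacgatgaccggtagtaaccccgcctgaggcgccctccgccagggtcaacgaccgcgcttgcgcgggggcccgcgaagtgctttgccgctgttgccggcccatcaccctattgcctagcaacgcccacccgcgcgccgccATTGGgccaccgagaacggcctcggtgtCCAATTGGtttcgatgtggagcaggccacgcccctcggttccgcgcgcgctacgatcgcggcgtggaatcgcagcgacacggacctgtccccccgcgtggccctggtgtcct
Elovl5 (chr9:77917115-77917414, plus strand): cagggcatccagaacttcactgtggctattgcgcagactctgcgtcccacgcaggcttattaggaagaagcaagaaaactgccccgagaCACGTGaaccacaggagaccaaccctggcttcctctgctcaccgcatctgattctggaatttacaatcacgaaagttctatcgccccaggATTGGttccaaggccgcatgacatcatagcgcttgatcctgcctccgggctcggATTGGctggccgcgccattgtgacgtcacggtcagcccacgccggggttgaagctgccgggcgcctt
Mogat1 (chr1:78510810-78511109, plus strand): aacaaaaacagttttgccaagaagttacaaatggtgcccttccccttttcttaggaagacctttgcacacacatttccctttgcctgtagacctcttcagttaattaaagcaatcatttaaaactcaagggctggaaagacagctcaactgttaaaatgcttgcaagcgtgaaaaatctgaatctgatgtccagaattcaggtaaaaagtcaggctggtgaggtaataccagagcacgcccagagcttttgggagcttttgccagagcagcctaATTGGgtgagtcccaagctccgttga
Thrsp (chr7:97417501-97417800, minus strand): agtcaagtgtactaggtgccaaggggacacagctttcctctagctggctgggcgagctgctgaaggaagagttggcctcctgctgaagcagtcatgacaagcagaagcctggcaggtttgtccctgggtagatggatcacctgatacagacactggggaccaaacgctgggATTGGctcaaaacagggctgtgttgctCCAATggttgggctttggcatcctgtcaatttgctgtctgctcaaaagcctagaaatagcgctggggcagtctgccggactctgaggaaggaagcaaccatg
Fasn held 3 CCAAT boxes, of which 2 share bases on opposite strands. Elovl5 held 2 CCAAT boxes and an E-box at bases -161 to -156 from the start. Mogat1 had 1 CCAAT box, after the start, and Thrsp had 2. Other genes with changes far apart have windows that are not shown. Those of Fads2, Gpat3 and Elovl6 held no CCAAT box and no E-box, and those of Acacb and Pnpla3 held 1 CCAAT box each. Of the 25 genes 16 (64%) held a CCAAT box, against 41.06% of all genes in the table, and 5 (20%) held CACGTG, against 8.093%: Elovl5, Lpin2, Lpin3, Mlxipl and Slc25a1. Some genes have several windows, and a gene was counted if any of them held the motif. By window, 17 of 35 held a CCAAT box, against 37.41% of all windows, and 5 of 35 held CACGTG, against 7.15%. A form of the sterol response element, TCACNCCAC, was found in 1 of the 25, Mlxipl (4%, against 1.436% of all genes). These letters describe the windows and show no binding.

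In liver, expression of the pathway was higher at 12 weeks than at 0 days. Of 30 genes tested, 22 rose and Mlxipl alone fell, while 42% of all 12592 genes passed the test, 20.6% upward and 21.4% downward. The median change of the 30 was 0.57, that of all genes 0.01. Elovl7 and Mogat2 had too few counts in liver to be tested. All 4 genes of acetyl-CoA and NADPH supply rose, by 0.57 (Slc25a1) to 1.13 (Me1), as did Acaca, Acacb and Fasn, and the 3 elongases tested. Gpam and the 3 Agpat genes rose by 0.38 (Agpat3) to 0.57 (Agpat2). No lipin passed the test, nor did Dgat1 and Dgat2, which lay at 0.01 and 0.02.

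Fasn, the palmitate synthase, was at 182, 211 and 354 CPM in the 6 livers at 0 days and at 422, 809 and 982 CPM at 12 weeks. All 12-week livers lay above all 0-day livers, and the log2 fold change was 1.70 ± 0.22 (adjusted p = 9.84e-10). The rise was not steady: the median was 404 CPM at 1 day, 198 at 3 days, 211 at 1 week and 403 at 4 weeks. Fasn thus passed the test at 1 day, not from 3 days to 2 weeks, and again at 3, 4, 7, 8, 10 and 12 weeks. Between 1 and 12 weeks it rose by 1.84 ± 0.22 (adjusted p = 1.18e-10).

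Elovl5, which elongates polyunsaturated chains and with Fads1 and Fads2 makes arachidonate and docosahexaenoate from dietary precursors, was at 159.6, 193 and 242 CPM at 0 days and 881, 1213 and 1354 CPM at 12 weeks. The groups did not overlap, and the change was 2.59 ± 0.24 (adjusted p = 7.54e-15). It rose within 1 day (1.74), had a median of 276 CPM at 1 week, the one time point at which it missed the test, and passed it at every later one. The desaturase Fads2 was at 400.4, 461 and 568 CPM, then at 1092, 1523 and 1848 CPM after 1 day and 1402, 1586 and 1840.2 CPM at 12 weeks, a change of 1.78 ± 0.18 (adjusted p = 6.50e-13). Fads1 was at 264, 286 and 309 CPM and 734, 858 and 906 CPM, a change of 1.55 ± 0.16 (adjusted p = 1.49e-12). Both desaturases had all 6 mice above 0 days at 1 day and at 12 weeks and rose at all 13 later time points, as did Agpat2, which acylates lysophosphatidate.

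Scd1, which makes oleate, took another course in liver. It was at 3832, 5852 and 7695 CPM at 0 days, its median was 2184 CPM at 1 week (-1.49 ± 0.38, adjusted p = 0.00480), and it was at 8828, 10683 and 11850.2 CPM at 12 weeks. All 6 livers at 12 weeks lay above those at 0 days, yet the change of 0.84 ± 0.37 (adjusted p = 0.0625) missed the threshold, and values at other times were spread widely (at 10 days 222, 3347 and 6297 CPM). It passed when the 12 libraries of 0 days and 12 weeks were fitted alone (adjusted p = 3.83e-04), in DESeq2 (0.0283) and without the least correlated libraries (0.0259). With RLE size factors, without the filter on low counts and with the replicate number as a block it still did not pass. Scd2, at 4.06, 4.74 and 5.53 CPM, was a minor gene in liver and reached 6.14, 6.95 and 8.85 CPM, a change of 0.57 ± 0.16 (adjusted p = 0.00206) with no overlap.

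Among the enzymes of glycerolipid assembly, Mogat1 changed most. It was at 0.0781, 0.265 and 0.704 CPM at 0 days, 21 counts over the group, and at 6.09, 10.5 and 14.8 CPM at 12 weeks, 815 counts, with no overlap and a change of 5.11 ± 0.47 (adjusted p = 5.78e-15). The rise came late: it first passed the test at 5 weeks, at a median of 1.29 CPM, and the medians were 2.48 at 7 weeks and 5.30 at 8 weeks. Gpat3, a glycerol phosphate acyltransferase of the endoplasmic reticulum, rose from 6 weeks onward, from 2.21, 5.33 and 7.39 CPM at 0 days to 14.5, 16.7 and 19.8 CPM at 12 weeks (1.81 ± 0.25, adjusted p = 4.63e-09), without overlap. Its relative Gpat4 was at 136, 216 and 283 CPM and 202, 220.0 and 335 CPM, and its change of 0.15 did not pass (adjusted p = 0.361). Dgat2, the main hepatic enzyme of the last step, was at 598, 654 and 680.3 CPM and 619, 648 and 725 CPM: its change was 0.02 ± 0.07 (adjusted p = 0.867), which turned to -0.19 (adjusted p = 0.0306) with offsets for GC content and length. Pnpla3, a lipid droplet protein and SREBP-1 target, rose by 2.64 at 12 weeks, from a group total of 11 counts at 0 days to 80.

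The regulators parted. Srebf1 was at 185, 219 and 257 CPM and 234, 289 and 309.6 CPM, an increase of 0.37 ± 0.14 (adjusted p = 0.0235) with overlap, which with offsets for GC content and length came to 0.16 (adjusted p = 0.318). Mlxipl was at 290.1, 332 and 356 CPM and 227, 251 and 329 CPM, a decrease (-0.32 ± 0.08, adjusted p = 7.17e-04), with overlap. Thrsp, a nuclear and cytosolic protein induced with the pathway, rose by 1.56 and passed the test at 12 of 13 time points, all but 4 weeks. The sum of the hepatocyte markers was 81827 CPM at 12 weeks. That of the adipocyte markers went from 31.3 to 171 CPM, made of Cidec and Cfd for the most part, while the defining adipocyte gene Lep had 0 counts at both times and Adipoq had 2 and 4 counts over the group.

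**Figure D1:**
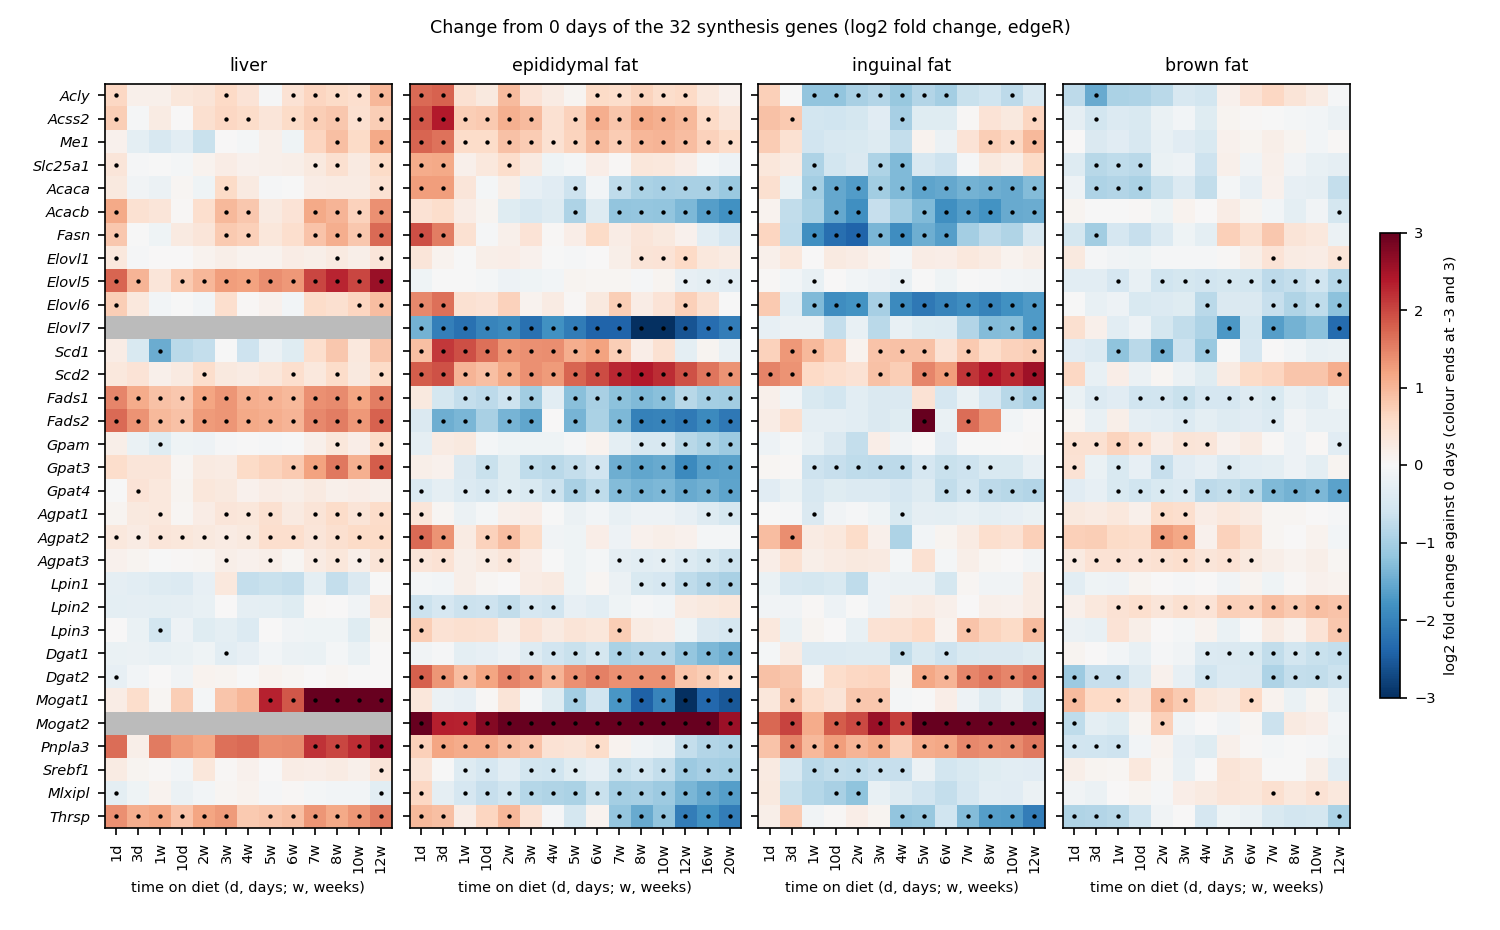
Log2 fold change from 0 days of the 32 genes (rows) at each later time point (columns) in liver and 3 fat depots, with a dot where the adjusted p was under 0.05 and grey where a gene was not tested. Liver is red in most rows at 12 weeks (22 rose, 1 fell), while in epididymal fat 18 rose at 1 day and 17 fell at 12 weeks.

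Counted over time, liver had 12 members that rose and 2 that fell at 1 day (9.65% of all genes were called), 5 and 3 at 1 week (10.7%), and 8 and 0 at 4 weeks (14.5%). From 1 to 12 weeks, in the contrast that leaves out the mice at 0 days, 22 members rose and 1 fell, where 40.2% of all genes were called. The 2 that fell at 1 day were Dgat2 (-0.25) and Mlxipl (-0.29). The 3 at 1 week were Scd1, Gpam (-0.36) and Lpin3 (-0.54).

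Epididymal fat, a visceral depot, opened with a broad rise and ended with a broad decline. At 1 day 18 of the 32 genes rose and 3 fell, where 19% of all genes were called, 10.8% upward and 8.26% downward. At 12 weeks 8 rose and 17 fell, where 60.4% of all genes were called, 31% upward and 29.3% downward, and at 20 weeks 4 rose and 19 fell (60.8%). The share of members called at 12 weeks, 25 of 32, was nearer to its background than at 1 day. The counts between were 7 and 7 at 1 week (36.4%) and 5 and 7 at 4 weeks (34%), and from 1 to 12 weeks 3 rose and 16 fell (45.8%).

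The early rise took in the genes from acetyl-CoA to palmitate except Acacb, which was at 0.44 ± 0.27 (adjusted p = 0.276) at 1 day and fell at 5 of the 13 time points to 12 weeks. Fasn was at 901, 1459 and 4141 CPM at 0 days and at 4287, 7504 and 10758 CPM at 1 day, a change of 1.92 ± 0.32 (adjusted p = 4.31e-06). Every 1-day value lay above the highest at 0 days, 4141 CPM, which came from the library with hepatocyte markers. The median was back at 1724 CPM at 10 days, and at 12 weeks Fasn was at 1169.5, 2239 and 2849 CPM, 0.13 ± 0.31 (adjusted p = 0.740). Acly, Acss2, Me1, Slc25a1 and Acaca rose at 1 day by 1.11 (Slc25a1) to 1.86 (Acss2). Of these, Me1 rose at all 13 time points to 12 weeks, Acss2 at 12, Acly at 8 and Slc25a1 at 3, and none of them fell at any. Acaca fell at 5 weeks and from 7 weeks on and was at -0.98 at 12 weeks.

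The 2 stearoyl-CoA desaturases of epididymal fat differed in time. Scd1 was at 8643, 11756 and 14003 CPM at 0 days and 16247, 22068 and 28664 CPM at 1 day, with no overlap (0.90 ± 0.21, adjusted p = 0.00110). Its median was highest at 3 days, 51924 CPM. Scd1 passed at every time point from 1 day to 7 weeks, and at 12 weeks it was at 5100.0, 9452 and 13557 CPM, a change of -0.30 ± 0.21 (adjusted p = 0.215), overlapping 0 days. Scd2, at 112, 177 and 206 CPM at 0 days, reached 435, 568 and 760.2 CPM at 1 day, peaked at a median of 855 CPM at 8 weeks and was at 396, 617 and 788 CPM at 12 weeks (1.9 ± 0.28, adjusted p = 7.24e-09). It did not overlap with 0 days at 1 day or at 12 weeks and passed the test at all 13 time points to 12 weeks, and at 16 and 20 weeks. Fads1 and Fads2, which rose in liver, fell here. Fads2 was at 28.8, 122 and 190.0 CPM and 21.7, 26.2 and 35.1 CPM, a change of -2.11 ± 0.50 (adjusted p = 1.52e-04), and its lowest value at 0 days, 28.8 CPM, was again that of replicate 1. The elongase Elovl7 was at 0.744, 8.66 and 12.7 CPM and 0.941, 1.21 and 1.80 CPM (-2.60 ± 0.43, adjusted p = 1.89e-07). Its overlap, too, came from replicate 1 at 0 days, at 0.744 CPM. Without the least correlated libraries, that one among them, the changes were -2.43 for Fads2 and -2.92 for Elovl7. Elovl5 was at 105, 113 and 118 CPM and 84.7, 93.4 and 110.0 CPM, a change of -0.24 ± 0.07 (adjusted p = 0.00248).

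Among the acyltransferases of epididymal fat, Mogat1 and Mogat2 moved in opposite directions, as did Dgat1 and Dgat2. Mogat2 (chr7:99219084-99238619) and Dgat2 (chr7:99153658-99182719) are neighbours, both on the minus strand. Mogat1 was at 24.7, 36.4 and 52.4 CPM at 0 days and 2.49, 3.87 and 5.24 CPM at 12 weeks, -3.19 ± 0.33 (adjusted p = 5.37e-14), with no overlap. It passed at 5 weeks and at every time point from 7 weeks on. Mogat2 was at 0.703, 1.18 and 1.80 CPM at 0 days, 6.50, 7.66 and 15.7 CPM at 1 day and 6.68, 9.21 and 15.6 CPM at 12 weeks (3.13 ± 0.50, adjusted p = 7.92e-08). It did not overlap with 0 days at either time, rose at all 13 time points and had its highest median, 24.2 CPM, at 6 weeks. Dgat2 rose at the same 13 time points and was at 798, 931 and 1500.0 CPM, 2289, 3448 and 4342 CPM and 1351, 1869 and 2269 CPM at 0 days, 1 day and 12 weeks, with a change of 1.80 ± 0.23 (adjusted p = 3.52e-09) at 1 day and 0.83 ± 0.22 (adjusted p = 9.07e-04) at 12 weeks. The overlap at 12 weeks came from replicate 1 at 0 days, at 1500.0 CPM. Dgat1 fell at 12 weeks by 1.17 on the log2 scale, as did Gpat4 by 1.52 and Gpam by 0.82. Agpat3 (-0.41), Lpin1 (-0.76) and Pnpla3 (-0.71) fell as well, and the elongases Elovl1 (0.60) and Elovl6 (0.72) rose. Gpat3 was at 77.1, 131 and 167 CPM and 21.6, 35.1 and 41.9 CPM, -1.92 ± 0.19 (adjusted p = 1.38e-14), with no overlap.

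All 3 regulators were lower late. Srebf1 was at 276, 339 and 493 CPM and 123, 160.3 and 205 CPM (-1.09 ± 0.15, adjusted p = 1.10e-09). Mlxipl was at 84.0, 112 and 136 CPM, at 122, 160.0 and 236 CPM at 1 day (0.61 ± 0.20, adjusted p = 0.0214) and at 23.8, 46.5 and 52.9 CPM at 12 weeks (-1.37 ± 0.20, adjusted p = 1.21e-08). The 12-week groups of both lay wholly below 0 days, and Mlxipl was lower at 11 of 13 time points. Thrsp rose by 0.98 at 1 day and fell by 2.07 at 12 weeks on the log2 scale. Between 0 days and 12 weeks the summed adipocyte markers went from 34072 to 16627 CPM (ranges 29008 to 41986 and 12539 to 20571), and 7 macrophage markers from 562 to 2587 CPM (ranges 475 to 686 and 1975 to 3738). In whole tissue, fewer adipocytes and less RNA per adipocyte cannot be told apart, and the part of either in the late falls was not tested. At 1 day the adipocyte sum was 29369 CPM and the macrophage sum 547 CPM.

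**Figure D2:**
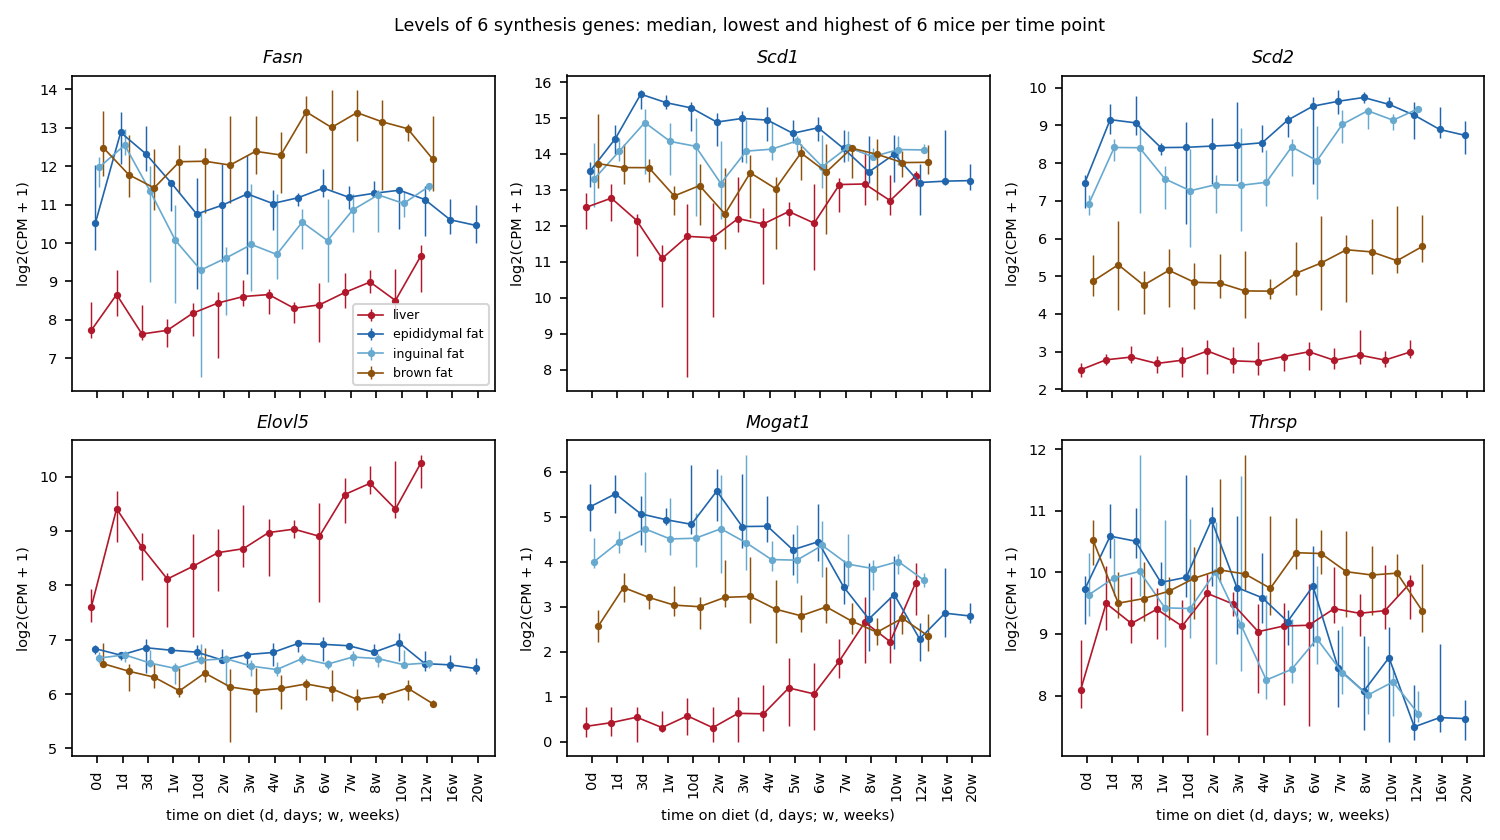
Levels of 6 genes, as log2(CPM + 1), over time on the diet in liver and 3 fat depots; points are medians and bars run from the lowest to the highest of 6 mice. Elovl5 and Mogat1 climb in liver while Mogat1 and Thrsp decline in epididymal fat, and Fasn peaks there at 1 day.

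Inguinal fat, a subcutaneous depot, had lower levels of palmitate synthesis genes from 1 week on, in Fasn until 6 weeks and in Acaca and Elovl6 until 12 weeks. Other members rose there: Mogat2 and Pnpla3 at 11 of 13 time points, Scd2 at 9 and Scd1 at 7, all 4 of them by 3 days, and Dgat2 from 5 weeks on. At 1 day Scd2 alone was called of 32 genes, where 0.605% of all genes were. At 1 week 2 rose and 9 fell (12% of all genes), at 4 weeks 2 and 12 (12.9%), and at 12 weeks 8 rose and 7 fell (44.6%, 21.5% upward and 23.1% downward). From 1 to 12 weeks 9 rose and 3 fell (40.3%). The share called at 12 weeks, 15 of 32, was close to the background. When the 12 libraries of the 2 time points were fitted alone, 7 members were called at 1 day (2.86% of all genes), 0 at 1 week (0.412%) and 24 at 12 weeks (60.2%), while GC and length offsets gave 7 at 1 week (3.48%). Replicate 6 at 1 week stood apart, with a median correlation of 0.813 with its group against 0.972 for the best library, and leaving out the least correlated libraries gave 2 at 1 day (1.28%).

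Fasn was at 2815, 4019 and 4798 CPM at 0 days and 4999.9, 5969 and 7993 CPM at 1 day, where all 6 mice lay above 0 days but the change of 0.64 ± 0.42 (adjusted p = 0.882) did not pass. The median then dropped to 628 CPM at 10 days (-2.26 ± 0.44, adjusted p = 4.28e-04) and returned to 2836 CPM, with 2607, 2836 and 2956 CPM at 12 weeks and a change of -0.48 ± 0.42 (adjusted p = 0.368). Fasn fell at every time point from 1 to 6 weeks. Acly fell over the same weeks and at 10 weeks, and Acaca and Elovl6, which elongates palmitate to stearate, at all 11 time points from 1 to 12 weeks. Elovl6 was at 60.8, 79.4 and 102 CPM and 20.6, 26.0 and 27.8 CPM, -1.69 ± 0.33 (adjusted p = 2.56e-05), with no overlap. Acacb was -1.49, Elovl7 -1.70 and Gpat4 -0.88 at 12 weeks, all called. Fads1 was at 46.1, 53.4 and 67.5 CPM and 22.9, 27.4 and 34.1 CPM, also with no overlap (-0.96 ± 0.29, adjusted p = 0.00499), and Elovl5 at 94.1, 100.3 and 108 CPM and 88.5, 94.3 and 98.1 CPM (-0.11 ± 0.07, adjusted p = 0.208).

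The 8 members that rose in inguinal fat by 12 weeks were both stearoyl-CoA desaturases, Mogat2, Dgat2 and Pnpla3, the lipin Lpin3 (0.95), and Acss2 (0.64) and Me1 (0.98). Scd2 was at 97.3, 121 and 143 CPM, 263, 340.4 and 394 CPM and 661, 697 and 728 CPM at 0 days, 1 day and 12 weeks, with no overlap at either time and a change of 2.55 ± 0.32 (adjusted p = 1.20e-09). Mogat2 was at 0.179, 0.825 and 1.35 CPM and 6.05, 8.55 and 13.1 CPM (3.48 ± 0.61, adjusted p = 3.32e-06), and Dgat2 at 709, 793 and 1284 CPM and 2293, 2747 and 3305 CPM (1.61 ± 0.35, adjusted p = 1.07e-04). Neither overlapped. Pnpla3 rose by 1.59 at 12 weeks. Scd1 was at 5894, 10109 and 20105 CPM and 17239.5, 17716 and 20014 CPM, with overlap. Its change of 0.73 ± 0.30 (adjusted p = 0.0396) missed the threshold without the filter on low counts (adjusted p = 0.0674) and with offsets for GC content and length (0.0531). Mogat1 was at 13.5, 15.1 and 22.1 CPM and 9.91, 11.1 and 12.5 CPM: all 6 mice lay below 0 days, but the change of -0.59 ± 0.29 (adjusted p = 0.0910) did not pass.

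At 12 weeks Thrsp was the one regulator called in inguinal fat, where it went from 627, 796 and 1278 CPM to 189, 207 and 269.6 CPM, with no overlap (-2.07 ± 0.39, adjusted p = 1.55e-05). Srebf1 was at 227, 294 and 391 CPM and 218, 239 and 249 CPM (-0.33 ± 0.21, adjusted p = 0.190), and Mlxipl at 32.7, 93.4 and 112 CPM and 67.7, 77.0 and 85.7 CPM (-0.17 ± 0.30, adjusted p = 0.687). Both had been lower earlier: Srebf1 fell at the 5 time points from 1 to 4 weeks (-0.80 at 1 week), and Mlxipl at 10 days (-0.98) and 2 weeks (-1.21). Markers of other tissue differed with time here. The sum of 6 B and T cell markers was 403 to 1206 CPM at 0 days and 2.83 to 14.1 CPM at 12 weeks. That of 6 skeletal muscle markers was 23.1 to 26626 and 5572 to 25888 CPM, and the adipocyte sum had medians of 25246 and 28804 CPM. The part of these in the changes was not tested.

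Fads2 stood out in 4 inguinal libraries, 3 of them by far. Its median stayed between 12.9 CPM at 4 weeks and 21.2 CPM at 1 day, but it reached 778 CPM in 1 mouse at 5 weeks, 254 in 1 at 7 weeks and 183 in 1 at 8 weeks. With these the change was 3.02 at 5 weeks (adjusted p = 2.76e-04) and 1.68 at 7 weeks (0.0254). Without the 3 libraries it was -0.09 (0.815) and -0.03 (0.936). As these were chosen for their high Fads2, a smaller change was bound to follow. The keratin gene Krt14 and the wax ester synthase gene Awat2, both expressed in skin and its glands and looked at after these values were seen, were highest in those libraries, Krt14 at 408 CPM and Awat2 at 1077 CPM in the mouse at 5 weeks. All 3 genes were also raised, by less, in replicate 3 at 7 weeks (Fads2 26.0, Awat2 21.0 and Krt14 13.7 CPM, below replicate 1) and in replicate 6 at 12 weeks (27.4, 22.1 and 8.30 CPM), where the change of Fads2 was 0.02 and not called. The fourth library, replicate 2 at 3 days, had Fads2 at 71.0 CPM, with the others at 13.8 to 17.9. Krt14 was at 0.108 and Awat2 at 0.651 CPM in it. The part of skin in any of these libraries was not tested.

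**Figure D3:**
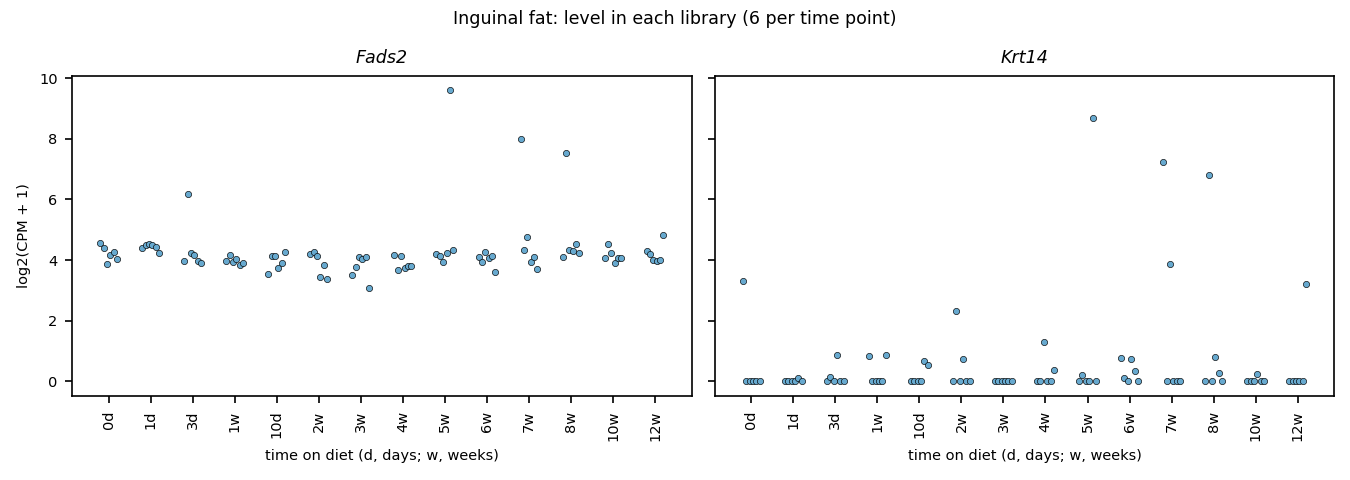
Fads2 and Krt14 in each inguinal library as log2(CPM + 1), 6 libraries per time point. The 3 libraries with the highest Fads2, at 5, 7 and 8 weeks, also have the highest Krt14.

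Brown fat, which burns fatty acids for heat, had the highest Fasn level of the 13 organs at 0 days, a mean of 6283 CPM. At 1 day 4 genes rose and 4 fell of 32 (17.9% of all genes were called), at 1 week 4 and 9 (15.7%), at 4 weeks 3 and 7 (14.7%), and at 12 weeks 4 and 9 (27.6%, 14.4% upward and 13.2% downward). From 1 to 12 weeks 4 rose and 10 fell (23.2%). Fasn was at 3445, 5689 and 11007 CPM and 2625, 4619 and 10112 CPM, -0.19 ± 0.36 (adjusted p = 0.762), and Scd1 at 8539, 13594 and 35338 CPM and 11183, 13952 and 19579.6 CPM, -0.19 ± 0.31 (adjusted p = 0.716). Both overlapped widely, and Scd1 fell at 1, 2 and 4 weeks.

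In brown fat 3 of the 4 elongases and 2 of the 6 genes of glycerol phosphate acylation fell by 12 weeks, while Elovl1 rose (0.38). Gpat4 was at 685, 777 and 874 CPM at 0 days and 220.0, 242 and 290.0 CPM at 12 weeks, -1.61 ± 0.15 (adjusted p = 3.26e-14), and it fell at all 11 time points from 1 week on. Elovl6 was at 396, 493 and 750.5 CPM and 145, 208 and 347 CPM (-1.23 ± 0.17, adjusted p = 2.94e-08), and Elovl5 at 90.2, 93.2 and 122 CPM and 54.3, 55.5 and 58.4 CPM (-0.85 ± 0.13, adjusted p = 1.44e-07). None of these 3 overlapped between the 2 times. Dgat2 fell within 1 day and was at 2059.9, 2394 and 2837 CPM, 993, 1109.6 and 1309.7 CPM and 1382, 1508 and 1766 CPM at 0 days, 1 day and 12 weeks, below 0 days in all mice both times (-1.09 ± 0.21, adjusted p = 5.44e-05 and -0.63 ± 0.21, adjusted p = 0.0150). Dgat1 was -0.72 and Elovl7 -2.30 at 12 weeks, the latter from 59 to 8 counts over the group. Acacb (-0.52) and Gpam (-0.35) also fell.

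Lpin2, a phosphatidate phosphatase, rose in brown fat at 11 of 13 time points, by 0.85 at 12 weeks (Lpin3 by 0.82), and Agpat3 at 9, all from 1 day to 6 weeks. Scd2 was at 21.2, 28.2 and 46.2 CPM and 40.3, 54.4 and 97.2 CPM, a late rise of 1.08 ± 0.35 (adjusted p = 0.0140) with overlap. Mogat1 was at 3.65, 4.92 and 6.64 CPM, rose without overlap to 7.65, 9.77 and 12.4 CPM at 1 day (0.95 ± 0.21, adjusted p = 6.34e-04) and was at 3.07, 4.12 and 6.14 CPM at 12 weeks (-0.22 ± 0.22, adjusted p = 0.511). Thrsp was at 1109, 1476 and 1848 CPM, 613, 723 and 1023 CPM and 523, 662 and 1132 CPM at 0 days, 1 day and 12 weeks (-0.89 ± 0.27, adjusted p = 0.0135 and -0.95 ± 0.27, adjusted p = 0.00524). The 1-day group lay below 0 days and the 12-week group overlapped. Srebf1 was at 133, 162 and 209.6 CPM and 113, 138 and 155 CPM (-0.31 ± 0.17, adjusted p = 0.162), and Mlxipl at 200.4, 212 and 245 CPM and 242, 261 and 340.3 CPM (0.33 ± 0.15, adjusted p = 0.105). Brown adipocyte markers summed to 9058 CPM at 0 days, 15173 at 1 day and 8101 at 12 weeks (4 genes), and skeletal muscle markers to 153 and 442 CPM at 0 days and 12 weeks. Their part in these changes was not tested.

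The difference between organs was tested itself, as the change in liver minus the change in a depot in 1 fit of both organs. Elovl7 and Mogat2 passed the count filter of these fits through the depots alone, so the counts here are of the 30 genes also tested in liver on its own, beside all genes tested in both organs. At 12 weeks the change was higher in liver for 18 of the 30 and higher in epididymal fat for 2, where 52.9% of all genes were called, 28% and 24.8% in the 2 directions. Against inguinal fat the counts were 14 and 3 (37.3%, 18.4% and 18.9%), and against brown fat 21 and 1 (25.9%, 13.8% and 12.1%). With the other two genes they were 19 and 2 of 32 (46.7% of all genes of the fit), 15 and 4 (33.3%) and 22 and 1 (23%). Of the 30, 12 had the higher change in liver against all 3 depots: Fasn, Acaca and Acacb, Elovl5, Fads1 and Fads2, the acyltransferases Gpat3, Gpat4, Agpat1 and Mogat1, and the regulators Srebf1 and Thrsp. Of the 11698 genes tested in all 4 organs, 4.15% did so. Each test shares the liver libraries, so the 3 are not independent. Without the least correlated libraries the counts of the 30 were 18 and 2 (55% of all genes), 15 and 2 (45.6%) and 23 and 1 (34.3%).

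Mogat1 had the widest gap against each depot, 8.41 ± 0.58 (adjusted p = 1.05e-26) against epididymal, 5.70 ± 0.57 (adjusted p = 2.81e-15) against inguinal and 5.35 ± 0.51 (adjusted p = 9.98e-17) against brown fat. At 12 weeks its median of 10.5 CPM in liver stood beside 3.87 CPM in epididymal fat, where the medians at 0 days had been 0.265 and 36.4 CPM. Elovl5 differed by 2.91 ± 0.25 (adjusted p = 4.54e-20), 2.68 ± 0.25 (adjusted p = 6.93e-17) and 3.45 ± 0.27 (adjusted p = 1.26e-21). Of the 30 genes, those between these 2 in size were Fads2 (3.98), Gpat3, Thrsp (3.72) and Pnpla3 (3.47) against epididymal, Thrsp (3.61) and Acacb (2.85) against inguinal and none against brown fat. Elovl5 fell in epididymal and brown fat and was not called in inguinal fat. Gpat3 differed by 3.81 ± 0.32 (adjusted p = 1.35e-20) from epididymal fat, Fads1 by 2.49 ± 0.34 (adjusted p = 7.84e-10) from inguinal fat and Gpat4 by 1.77 ± 0.19 (adjusted p = 1.65e-13) from brown fat. The last of these rests on the fall in brown fat, as Gpat4 did not pass the test in liver.

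At 12 weeks few members had the higher change in fat. Scd2 did so in both white depots, by -1.25 ± 0.34 (adjusted p = 0.00119) and -2.00 ± 0.36 (adjusted p = 3.47e-06) as liver minus depot, and so did Dgat2, by -0.73 ± 0.24 (adjusted p = 0.00875) and -1.61 ± 0.35 (adjusted p = 1.00e-04). Lpin3 did so against inguinal fat. Mlxipl was the one gene in this direction against brown fat, by -0.63 ± 0.18 (adjusted p = 0.00364). Mogat2 and Elovl7 had group totals of 13 and 30 and of 19 and 70 counts in liver at the 2 times, too few to set their changes there against those in fat.

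At 1 day the order was the reverse in epididymal fat. The change was higher in liver for 3 of the 30 members and higher in the depot for 9, where 10.4% of all genes were called, 5.24% and 5.13% in the 2 directions. The 9 were Dgat2 (-2.02 ± 0.24, adjusted p = 1.85e-10), Agpat2 (-1.33 ± 0.26, adjusted p = 8.36e-05), Me1 (-1.59 ± 0.35, adjusted p = 4.37e-04), Scd2, Mlxipl, Acss2, Acly, Slc25a1 and Acaca, and the 3 were Elovl5 (1.89 ± 0.25, adjusted p = 2.67e-09), Fads2 (2.16 ± 0.54, adjusted p = 0.00294) and Fads1 (1.18 ± 0.32, adjusted p = 0.00688). The difference of Fasn, -1.08 ± 0.40 (adjusted p = 0.0659), did not pass. The counts were 5 and 5 at 1 week (21.1% of all genes) and 7 and 3 at 4 weeks (20.7%). Without the least correlated libraries they were 3 and 12 at 1 day, where the shares of all genes were 5.63% and 12%, 4 and 6 at 1 week (28.7%) and 10 and 4 at 4 weeks (28.4%), so that the move toward the depot at 1 day went with one over all genes. Against inguinal fat they were 2 and 0 at 1 day (0.536%), 10 and 1 at 1 week (11.4%) and 14 and 1 at 4 weeks (9.28%), and against brown fat 10 and 0 (12.9%), 7 and 4 (12.6%) and 9 and 0 (11.4%). Elovl5 and Fads1 were the 2 members called against inguinal fat at 1 day, and both were also higher in liver against brown fat then.

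**Figure D4:**
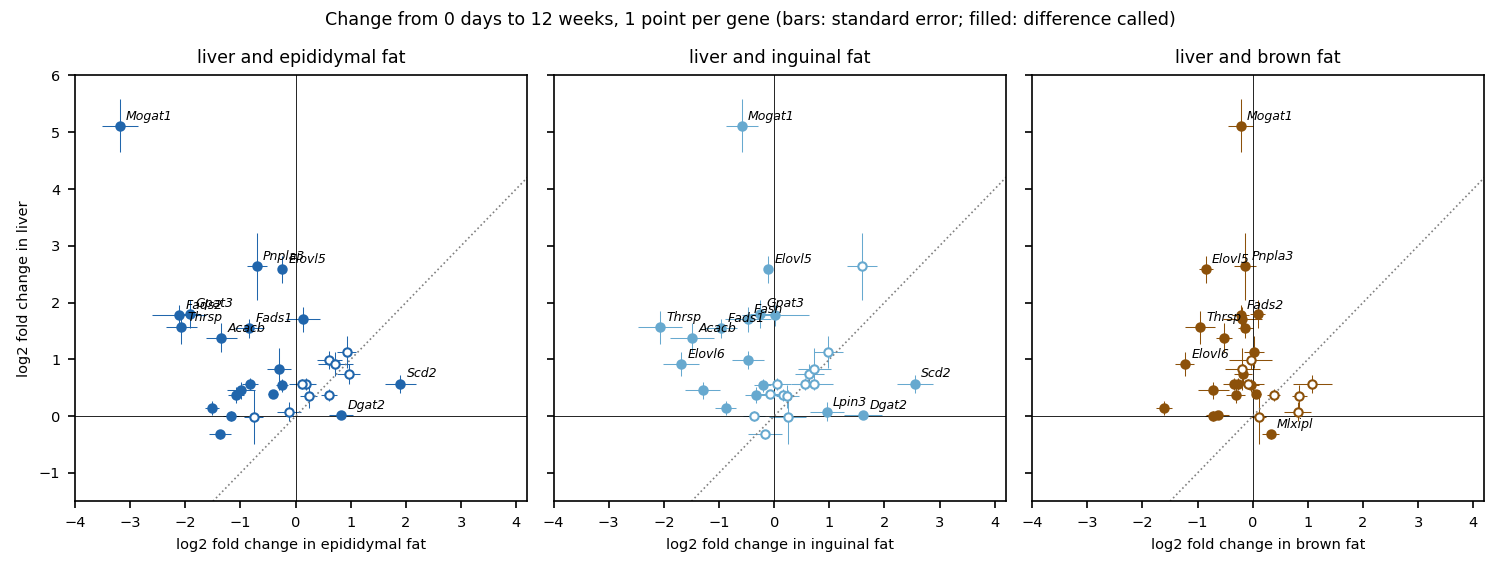
Log2 fold change from 0 days to 12 weeks in liver (vertical) against each fat depot (horizontal) for the 30 genes tested in liver; bars are SE, filled points differ between the organs, names are given where the difference was 2 or more or lay toward the depot, and the dotted line marks equal change. Mogat1 and Elovl5 lie far above the line in all 3 panels, and Scd2 and Dgat2 below it against the white depots.

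In the small intestine most of the pathway was higher after 1 day of the diet. Of 31 genes tested 22 rose and 2 fell, where 23.5% of all genes were called, 12.1% upward and 11.4% downward. Me1 rose by 1.76, Scd1 by 1.68, Pnpla3 by 1.99 (from 37 to 126 counts over the group), Acacb by 1.18 and Fasn by 0.98. Elovl5 and Gpat3 fell, by 0.21 and 0.19 on the log2 scale. At 12 weeks 11 rose and 6 fell (38.9% of all genes, 19.8% upward and 19.1% downward), and with offsets for GC content and length 4 and 6 (31.3%, 14.7% and 16.7%).

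Me1, malic enzyme, was at 42.8, 49.8 and 57.1 CPM and 129, 149.6 and 172 CPM in the small intestine (1.59 ± 0.12, adjusted p = 8.77e-19). The citrate carrier Slc25a1 was at 93.4, 104 and 108 CPM and 128, 139 and 151 CPM (0.45 ± 0.05, adjusted p = 4.76e-11), and Acacb at 5.91, 7.24 and 10.2 CPM and 12.9, 15.2 and 17.5 CPM (1.01 ± 0.14, adjusted p = 4.88e-09). The groups of these 3 did not overlap, and all 3 rose at every one of the 13 time points. At 12 weeks Fasn was at -0.18 and not called, while Scd1 and Thrsp, which had risen at 1 day, were at -0.93 and -1.87, both called. Of the acyltransferases that lead in this organ, Dgat1 and Mogat2 both changed by 0.06 (neither called), while Dgat2 rose by 0.44 (called). Dgat1 rose at 3, Mogat2 at 4 and Dgat2 at 9 of the 13 time points. The sum of 3 pancreatic acinar markers in these samples ran from 2655 to 7512 CPM at 0 days and from 44.2 to 1062 CPM at 12 weeks (median at 1 day 5441), and its part was not tested.

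In the pituitary 4 members rose and 9 fell of 31 at 12 weeks (45.6% of all genes were called). At 1 day edgeR called 0 members, where 17 of all 15086 genes rose and 5 fell. An unadjusted p under 0.05 was found for 5 members and for 1392 of the 15086 genes. At 3 days 7 rose and 7 fell (40%). Mlxipl was at 18.4, 19.6 and 24.0 CPM at 0 days, 15.9, 17.1 and 20.1 CPM at 1 day, 6.02, 6.30 and 7.51 CPM at 3 days and 3.96, 5.29 and 7.04 CPM at 12 weeks (-1.93 ± 0.14, adjusted p = 6.80e-20). Acaca moved the other way, from 22.8, 25.7 and 29.2 CPM to 38.2, 42.5 and 45.5 CPM (0.70 ± 0.08, adjusted p = 6.47e-11), and Lpin3 was at 19.7, 20.6 and 22.3 CPM and 8.90, 11.4 and 12.5 CPM (-0.92 ± 0.11, adjusted p = 5.87e-11). None of the 3 overlapped between 0 days and 12 weeks. The sum of the hormone genes Gh, Prl and Pomc had medians of 202829 and 117576 CPM at the 2 times, and its part in these changes was not tested.

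Changes in the 4 brain regions were small. At 12 weeks 2 members rose and 10 fell of 30 in hippocampus (25.6% of all genes), 0 and 9 of 31 in hypothalamus (6.8%), 6 and 8 of 30 in neocortex (25%) and 3 and 5 of 30 in olfactory bulb (20.8%). Scd1 was at 169.6, 204 and 219 CPM and 139, 148 and 153 CPM in hippocampus (-0.44 ± 0.06, adjusted p = 6.89e-08) and at 241, 261 and 278 CPM and 191, 193 and 206 CPM in neocortex (-0.40 ± 0.04, adjusted p = 4.46e-12), without overlap in either. In hypothalamus Scd2 was at 2501, 2565 and 2704 CPM and 2294, 2396 and 2476 CPM, a difference of -0.11 ± 0.02 (adjusted p = 9.04e-04). Acss2 (-0.25) and Lpin2 (0.28) were the next in hippocampus, Acaca (-0.15) and Fads2 (-0.13) in hypothalamus, and Gpam (-0.30) and Elovl7 (-0.56) in neocortex. The sum of 3 myelin markers had medians of 5676 and 3116 CPM in hippocampus, 7187 and 5795 in hypothalamus and 4702 and 3619 in neocortex at 0 days and 12 weeks, and its part in these changes was not tested. In olfactory bulb Agpat1 was 0.22, Acaca -0.21 and Elovl7 -0.32.

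Gastrocnemius muscle had 2 members that rose and 4 that fell of 29 (5.94% of all genes). Fads1 was at 6.45, 7.80 and 9.74 CPM and 3.23, 4.24 and 5.31 CPM (-0.89 ± 0.16, adjusted p = 5.66e-05), Elovl6 at 1.93, 2.31 and 3.96 CPM and 0.388, 0.693 and 1.04 CPM (-1.81 ± 0.36, adjusted p = 2.68e-04) and Fads2 at 2.07, 3.71 and 4.23 CPM and 1.69, 2.03 and 2.55 CPM (-0.77 ± 0.16, adjusted p = 7.20e-04). Fads2 alone overlapped. Adipocyte markers summed to a median of 259 CPM there at 0 days and 877 in replicate 2, and without the least correlated libraries 4 members rose and 4 fell, where 7.95% of all genes were called. The part of adipocytes in the changes of gastrocnemius was not tested. Soleus had 1 called member of 30 (3.88%), Acss2, at 34.1, 61.9 and 72.9 CPM and 84.6, 92.4 and 99.8 CPM (0.61 ± 0.12, adjusted p = 3.58e-04). The factors that scaled soleus library sizes ran from 0.329 to 1.37. The least correlated libraries, such as replicate 1 at 0 days, were not left out in soleus. Pancreas had 2 of 30, both lower (5.9%): Fads2, at 14.3, 16.9 and 20.8 CPM and 9.62, 11.2 and 12.0 CPM (-0.65 ± 0.14, adjusted p = 0.00155), and Acacb, at 25.1, 32.9 and 34.9 CPM and 16.8, 20.1 and 24.9 CPM (-0.65 ± 0.15, adjusted p = 0.00339), neither with overlap. Whether these organs differ from liver was not tested.

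**Figure D5:**
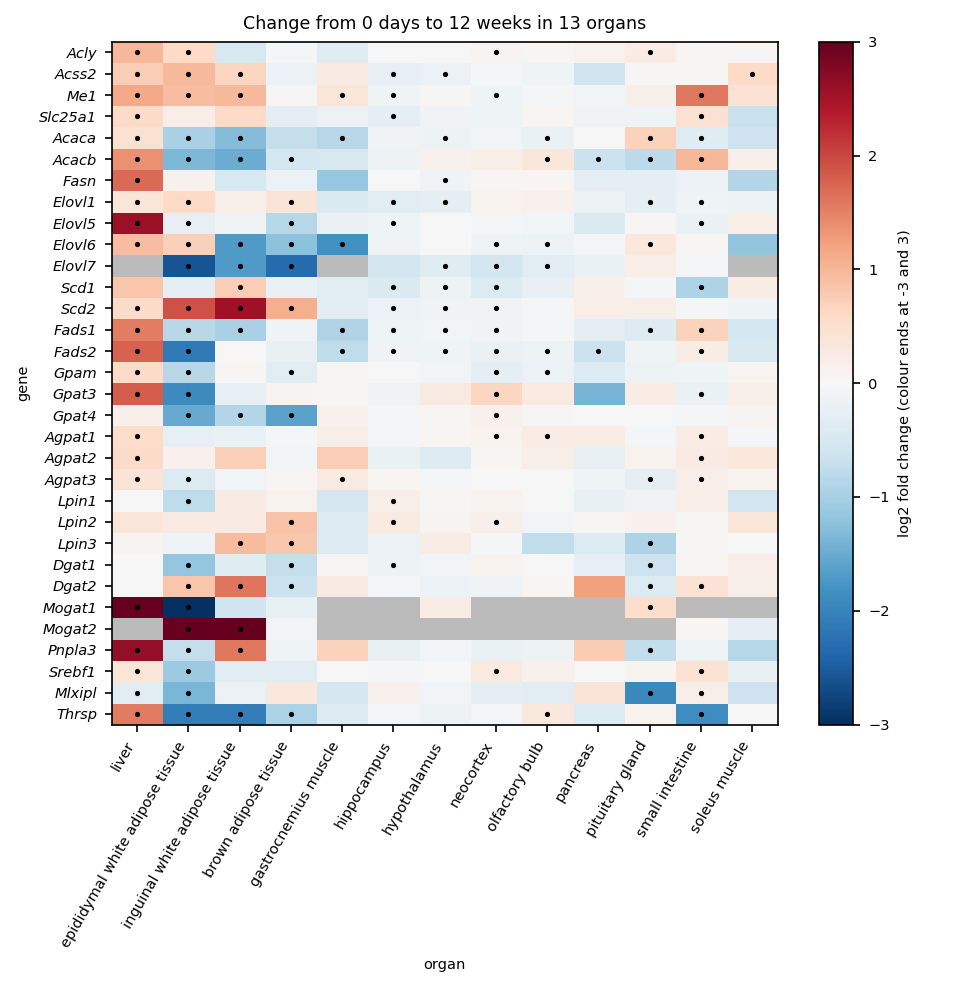
Log2 fold change from 0 days to 12 weeks of the 32 genes in 13 organs, with a dot where the adjusted p was under 0.05 and grey where a gene was not tested. Most of the strong colours lie in liver, the fat depots and small intestine, and the brain regions and soleus are pale.

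Further genes around the pathway, on lists of other enzymes (30 genes), regulators (14) and carbohydrate supply (8), were counted beside the members. At 12 weeks 12 enzymes rose and 1 fell of 26 tested in liver, where 42% of all genes were called, and 13 and 7 of 29 in epididymal fat, where 60.4% were. Inguinal fat had 13 and 3 of 28 (44.6% of all genes) and brown fat 3 and 9 of 26 (27.6%). Liver had Pgd, of the pentose phosphate path to NADPH, at 1.31, and Hsd17b12 (0.71) and Tecr (0.70), which complete an elongation cycle. In the white depots Pck1, of a path that leads to glycerol phosphate there, was at -3.77 (epididymal) and -2.26 (inguinal). G6pdx (1.07) and Hsd17b12 (1.02) rose in epididymal and Idh1 (1.15) and Fads3 (1.99) in inguinal fat. Brown fat had the thioesterase Acot1 at -2.83, Acsl5 at -1.32 and Fads3 at 1.93.

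Of the 14 regulators, 5 rose and 5 fell in liver, 2 and 6 in epididymal, 2 and 5 in inguinal and 1 and 1 in brown fat, beside the same shares of all genes, so that the counts in the white depots lay near the background. Insig1, which holds SREBP precursors in the endoplasmic reticulum and is itself induced by them, rose in all 3 depots, by 2.36, 2.2 and 0.76 in epididymal, inguinal and brown fat. Liver had Pparg at 1.82, Srebf2 at 0.80 and Scap at -0.47, while Scap (-0.55) and Rxra (-0.90) fell in epididymal fat, Usf1 (-0.74) and Usf2 (-0.66) in inguinal fat and Mlx (-0.42) in brown fat. Of the 8 genes of carbohydrate supply, 5 rose and none fell in liver, where 20.6% of all genes rose, with Khk, ketohexokinase, at 0.53. In epididymal fat 7 of the 8 fell and none rose, where 29.3% of all genes fell, with the insulin-regulated glucose transporter gene Slc2a4 at -2.23, Khk at -1.98 and Tkfc at -0.83. In inguinal fat 2 of 6 fell (Khk, -1.0, and Tkfc, -0.55), where 23.1% of all genes fell, and in brown fat 2 of 6 (Slc2a4, -0.68, and Tkfc, -0.42), where 13.2% fell.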

How the data were processed

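The authors deposited 1 table of raw read counts, with genes by symbol in rows and 1104 libraries in columns. The submitters' processing notes list HISAT2 2.1.0 and featureCounts 1.6.3, with Trimmomatic 0.38, FastQC 0.11.7 and SAMtools 1.9, and the builds GRCm38 and mm10. Annotation and treatment of strand in counting were not given in these sources. Library totals were 7670532 to 27036098 counts, so genes with few counts carry the larger error.

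A separate edgeR 4.0.16 fit was made for each organ in R 4.3.3 (filterByExpr, TMM, quasi-likelihood test, two-sided), with 1 coefficient per time point, and p-values were adjusted over all its genes by Benjamini and Hochberg. The SE is the size of the log2 fold change divided by the root of the F statistic. Differences between liver and a depot came from a fit of both organs with an organ by time term. The 6 libraries of a group are from 6 mice, per the series' design. Within a group, the counts of the most alike pair differed by a chi-square per degree of freedom of 2.11, above sampling noise.

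The members and the other gene lists were chosen with earlier results of these data known. Values per library are given for Fasn, Scd1, Srebf1, Mlxipl and Dgat2 in liver and the depots, for the 4 called members with the largest 12-week change there among those with a mean of at least 5 CPM in either group, and for the 3 members per direction with the smallest p in each liver and depot comparison. In the 9 other organs the 3 called members with the smallest p are named, and from each other list the 3 genes with the smallest p among those called, except some liver genes of carbohydrate supply that are not reported here. Gene models are GENCODE M21 and promoters RefSeq, both GRCm38. Alternatives were RLE size factors, no filter, DESeq2 1.42.0, the 2 time points alone, a replicate block, leaving out from every time point its least correlated library, and offsets for GC content and length (splines with 5 degrees of freedom). Chosen after seeing the data were the alternatives for 1 against 12 weeks, for small intestine at 1 day and in part at 12 weeks, for the difference between liver and a depot before 12 weeks (RLE, libraries left out), its counts over genes tested in both organs alone, which leave Mogat2 out of those named, the libraries left out at 20 weeks and in gastrocnemius, and those left out for inguinal Fads2. The code was tested on simulated counts.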

Additional observations from a re-analysis of the deposited data

Results flagged for a closer look

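In 5 of 92 groups of 6 mice looked at, 1 library lay far from the other 5 (chance gives about 1 in 20). Replicate 1 of epididymal fat at 0 days, the library with hepatocyte markers, had Dgat2 at 1500.0 CPM, with the others at 798 to 978. Replicate 6 of brown fat at 0 days, the least correlated of its group, had Scd1 at 35338 CPM, with the others at 8539 to 17235. At 12 weeks replicate 6 had Thrsp at 269.6 CPM in inguinal fat (others 189 to 214), Mlxipl at 340.3 CPM in brown fat (others 242 to 275) and Gpat4 at 335 CPM in liver (others 202 to 251).

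The change to 12 weeks differed between liver and a depot, by the test of the difference itself, in these named members. Mogat1 was higher in liver by 8.41, 5.70 and 5.35 against epididymal, inguinal and brown fat, and Elovl5 by 2.91, 2.68 and 3.45. Gpat3 was higher by 3.81 against epididymal fat, Fads1 by 2.49 against inguinal fat and Gpat4 by 1.77 against brown fat. In the other direction, liver minus depot was -1.25 and -2.00 for Scd2 and -0.73 and -1.61 for Dgat2 in epididymal and inguinal fat, and -0.63 for Mlxipl in brown fat.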

How the results depend on the processing

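Of 216 alternative values for the counts of members called, 209 stayed within 1.5 times the main count. The exceptions lay in inguinal fat and small intestine. Inguinal fat had 1 member called at 1 day, against 7 with the 2 time points fitted alone and 2 without the least correlated libraries. At 1 week it had 11, against 0 (2 time points alone) and 7 (offsets for GC content and length). At 12 weeks it had 15, against 24 (2 time points alone), and small intestine had 17, against 10 (offsets). In liver minus inguinal fat at 1 day 2 were called, against 4 without the least correlated libraries. Of 616 alternative values for named members, 597 kept their side of the threshold, 4 lost the call and 14 gained it. Direction was compared only where a call was made in either fit, so an uncalled value of changed sign would count among the 597. The calls lost were those of Scd1 in inguinal fat (without the filter and with the offsets), of Srebf1 in liver (offsets) and of Mogat2 in liver minus inguinal fat (without the least correlated libraries). Dgat2 in liver at 12 weeks changed sign with the offsets (-0.19). The causes were not tested.

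Counts over all genes moved by more than 1.5 times in inguinal fat at 1 day (89 to 149 in DESeq2, 397 with 2 time points alone and 187 without the least correlated libraries), at 1 week (1767 to 57 with 2 time points alone and 511 with offsets) and at 4 weeks (1895 to 4169 without those libraries). Without those libraries brown fat went from 2356 to 4013 at 1 day, 2077 to 3352 at 1 week, 1938 to 2979 at 4 weeks and 3066 to 5118 from 1 to 12 weeks. In liver minus depot, without them, the counts went from 1450 to 2230 (epididymal, 1 day), 66 to 147 and 1187 to 2485 (inguinal, 1 day and 4 weeks) and 1564 to 2494 and 1525 to 2473 (brown, 1 day and 1 week). The share of these calls that were higher in liver went from 55.7% to 33.5%, 49.4% to 35.4% and 53.5% to 39.3% in epididymal fat at 1 day, 1 week and 4 weeks. Small intestine at 1 day went from 3378 to 2181 with 2 time points alone. With the replicate number as a block, the members called at 12 weeks between liver and depot were 21, 20 and 24 of 32 for epididymal, inguinal and brown fat. The 32 include Elovl7 and Mogat2, which passed the filter through the depots alone. Over all genes of these fits, 3912 were higher in liver and 3155 in the depot of 15413 (epididymal). The numbers were 2592 and 2461 of 15119 for inguinal and 1746 and 1474 of 14058 for brown fat. No count of members moved by more than 1.5 times with the block. The labels do not say that a number marks 1 mouse across organs. Deviations from the group means of same-numbered liver and fat samples had a median correlation of 0.0509, 0.0444 and 0.104, against -0.0123, -0.00747 and -0.0205 for other numbers, and were over 0.1 in 22, 21 and 44 of 84 pairs. A sample correlated best with its own number in 33, 29 and 46 of 84 cases, more than the 1 in 6 of numbers with no tie. Same-numbered samples of different time points, which are different mice, correlated as well, with medians of 0.119 in liver and 0.0594, 0.0614 and 0.0491 in the depots, so these values do not show that a number marks 1 mouse. Elovl7, Mogat2 and Pnpla3 in liver rest on few counts.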
